A study of Homo sapiens with 8 samples.

Results

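The interleukin 7 receptor and its JAK-STAT5 pathway were followed in CEM, a cell line from a human T-cell acute lymphoblastic leukaemia. The members are the 10 genes IL7R, IL2RG, IL2RA, IL4R, JAK1, JAK3, STAT5A, STAT5B, SOCS2 and CISH, taken by every probe set whose symbol in the deposited workbook was exactly one of these names. They had 28 of the 54613 probe sets tested, and 10 of the 20307 symbols with a probe set of their own. Of the 8 cultures, 4 had been transfected with an shRNA against ZMIZ1, a PIAS-like transcriptional coactivator, and 4 with a scrambled shRNA; no further allele or agent is named for either group. The arrays were Affymetrix HG-U133 Plus 2.0, on which total RNA was measured; they report a log2 value per probe set and no counts, so that the number of arrays limits the precision. All cultures come from 1 cell line, the labels name a single shRNA target with no rescue, and the replicates are given as biological and unpaired.

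Interleukin 7 binds a receptor made of the IL7R chain and the common gamma chain, encoded by IL2RG, which is shared with the receptors for interleukins 2, 4, 9, 15 and 21. JAK1 sits on the cytokine-specific chain and JAK3 on the gamma chain. The kinases phosphorylate the receptor and then STAT5A and STAT5B, which enter the nucleus and switch on genes such as CISH and SOCS2, whose products restrain the same pathway. Developing T cells need this signal to survive, and activating mutations of IL7R, JAK1, JAK3 and STAT5B occur in T-cell acute lymphoblastic leukaemia.

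The brightest probe set of ZMIZ1 averaged 9.95 ± 0.14 in knockdown cultures and 11.16 ± 0.06 in control cultures (log2, SD, n = 4 each), a difference of -1.21 that passed limma's test (adjusted p = 0.000109). The array's 18S ribosomal RNA controls had a mean log2 signal of 12.12, 11.67, 9.85 and 10.21 in knockdown replicates 1 to 4 and of 12.70 to 13.37 in control arrays (two-sided exact permutation p = 0.0286; 70 assignments allow no smaller value). Knockdown replicates 3 and 4 thus stood apart from all others. The array medians were 5.152 to 5.175 in knockdown and 5.177 to 5.205 in control arrays, without overlap (exact permutation p = 0.0286). The log2 gap between the 3' and 5' control probe sets of ACTB, a measure of RNA integrity, was 1.62 to 2.61 in knockdown and 0.69 to 2.37 in control arrays (exact permutation p = 0.286). The same gap for GAPDH was 0.28 to 0.30 in knockdown and 0.15 to 0.34 in control arrays (exact permutation p = 0.314). Of 9 T lineage markers, 7 had a mean of at least 6, among them CD3D, CD3G, CD247 and LCK, while CD2 (mean 4.07) and CD5 (mean 5.79) did not; the summed log2 level of the 9 was 76.8 to 77.8 in knockdown and 77.0 to 77.6 in control arrays. Within that list CD3E rose (1.06) and CD1A fell (-0.93), and 7 did not pass. All 6 myeloid markers had means under 6 and none passed, and of the 2 erythroid ones measured, both dim, HBB rose (0.44). CD79A and CD79B of 5 B lineage markers, COL1A1, EPCAM and KRT8 of 4 fibroblast and epithelial ones and NCAM1 of 3 for natural killer cells had means of at least 6, and none of these lists had a call. The summed level of the erythroid pair was 10.03 to 10.38 in knockdown and 9.53 to 9.62 in control arrays, without overlap, and that of the myeloid markers 28.1 to 29.5 in knockdown and 28.9 to 29.5 in control arrays. It was 29.8 to 30.2 in knockdown and 29.7 to 30.1 in control arrays for B lineage, 25.5 to 26.0 in knockdown and 26.1 to 26.6 in control arrays for fibroblast and epithelial markers, and 14.86 to 15.48 in knockdown and 15.52 to 15.63 in control arrays for natural killer markers, the last 2 without overlap. Whether these shifts bear on the results was not tested.

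Of the 28 member probe sets, 2 rose (IL2RG and 1 of 4 for JAK3), 2 fell (both of IL7R) and 24 did not pass at an adjusted p under 0.05, which is 14.3% with a call against 13.9% of all probe sets. The share of members with a call was thus near that of the whole array. By direction, 8.38% of all probe sets rose and 5.52% fell. The groups did not overlap in 7 of the 28, with all knockdown arrays above in 5 and below in 2, against 19.8% of all probe sets (11.6% above and 8.21% below). The median difference, knockdown minus control, was 0.04 for the members and 0.01 for all probe sets (log2). Of the 28, 17 had a mean over the 8 arrays of at least 6, the limit used here for a dim probe set; all 4 calls lay among these, where the share of all such probe sets with a call was 27.7%.

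**Figure D1:**
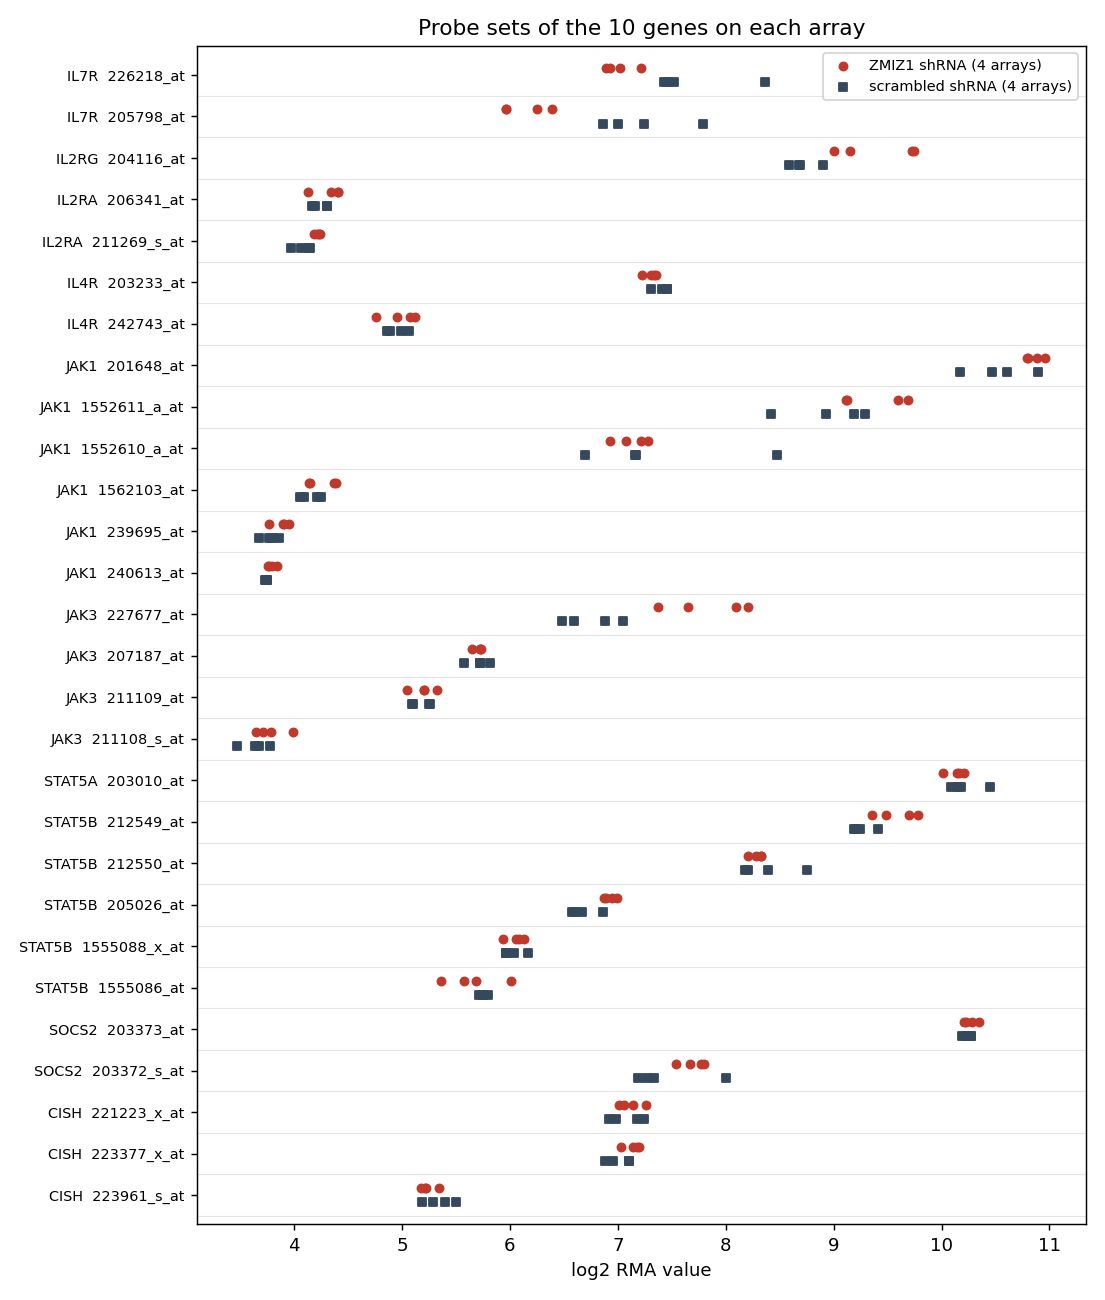
Log2 RMA value of each of the 28 member probe sets (rows, by gene) on each array; circles are the 4 ZMIZ1 shRNA arrays and squares the 4 scrambled shRNA arrays. All knockdown circles lie left of the control squares in both IL7R rows and right of them for IL2RG 204116_at and JAK3 227677_at.

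Promoters are shown for the 3 genes with a call and for CISH, the gene by which STAT5 activity is often read. The sequences are RefSeq windows of GRCh38.p14, from 250 bases before to 50 after the annotated start; such windows were found for 9 of the 10 members. Capitals mark the STAT5 motif TTCNNNGAA, the ETS motif CCGGAAG and the RUNX motif TGTGGT, searched on both strands.
IL7R (chr5:35856641-35856940, plus strand): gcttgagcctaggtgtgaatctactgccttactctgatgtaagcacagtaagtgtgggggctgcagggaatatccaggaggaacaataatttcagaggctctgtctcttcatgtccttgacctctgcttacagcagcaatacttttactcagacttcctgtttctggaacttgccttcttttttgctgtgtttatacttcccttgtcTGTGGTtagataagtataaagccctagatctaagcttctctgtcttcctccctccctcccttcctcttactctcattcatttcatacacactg
IL2RG (chrX:71111528-71111827, minus strand): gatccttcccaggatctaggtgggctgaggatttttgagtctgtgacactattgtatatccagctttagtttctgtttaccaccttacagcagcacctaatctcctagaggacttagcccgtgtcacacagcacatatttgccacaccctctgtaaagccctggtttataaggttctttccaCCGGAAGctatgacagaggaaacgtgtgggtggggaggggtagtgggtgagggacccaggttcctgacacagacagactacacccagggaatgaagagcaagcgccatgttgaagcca
JAK3 (chr19:17847933-17848232, minus strand): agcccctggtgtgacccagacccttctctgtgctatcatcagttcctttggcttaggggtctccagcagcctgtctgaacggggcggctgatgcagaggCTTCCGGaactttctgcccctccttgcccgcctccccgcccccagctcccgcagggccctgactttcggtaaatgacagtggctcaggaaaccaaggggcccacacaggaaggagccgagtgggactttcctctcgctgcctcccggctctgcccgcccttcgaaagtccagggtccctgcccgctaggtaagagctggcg
CISH (chr3:50611725-50612024, minus strand): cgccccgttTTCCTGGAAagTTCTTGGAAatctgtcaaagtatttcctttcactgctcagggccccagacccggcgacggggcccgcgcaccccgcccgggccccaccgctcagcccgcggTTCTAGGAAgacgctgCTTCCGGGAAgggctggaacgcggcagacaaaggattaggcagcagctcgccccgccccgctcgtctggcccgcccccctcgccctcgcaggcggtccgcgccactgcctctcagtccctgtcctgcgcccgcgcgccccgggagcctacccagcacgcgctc
The CISH window held 4 matches to the STAT5 motif, beginning at -241, -230, -129 and -112 from the start; its ETS match at -113 overlaps the last of them. A STAT5 match occurred in 7.66% of the 35116 windows of all genes and at least 4 matches in 7 windows (0.0199%), and no window of the other members with a promoter here held one. IL7R had a RUNX match at -43, a motif found in 13.1% of windows. IL2RG had an ETS match at -68 and JAK3 at -151, a motif found in 10.3% of windows; JAK1 held one at -62 in 1 of its windows. These matches describe letters and not binding.

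IL7R, the chain that binds interleukin 7, fell on both of its probe sets. Probe set 205798_at had log2 values of 6.25, 6.39, 5.96 and 5.97 in knockdown arrays and 7.78, 7.004, 6.86 and 7.24 in control arrays. Every knockdown value lay below every control value. The group means were 6.14 ± 0.21 in knockdown and 7.22 ± 0.41 in control arrays (SD, n = 4 each), a difference of -1.08 ± 0.18 (SE; 95% confidence interval -1.48 to -0.67; limma adjusted p = 0.00435), which leaves 47.4% of the control level. The brighter probe set, 226218_at, had 7.22, 6.93, 7.02 and 6.89 in knockdown arrays and 8.37, 7.47, 7.43 and 7.52 in control arrays. Control replicate 1 was the highest array on both probe sets. The difference of 226218_at was -0.68 ± 0.19 (SE; adjusted p = 0.0359), or 62.2% of the control level.

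The call of IL7R 205798_at held whichever array was left out, with differences from -1.20 to -0.89 and adjusted p up to 0.0187. That of 226218_at ended without knockdown replicate 2, 3 or 4 (adjusted p = 0.0820, 0.0822 and 0.0985); without control replicate 1 its difference was -0.46 and it passed. With the equal-variance test 205798_at passed narrowly (adjusted p = 0.0485) and 226218_at did not (0.143). With only knockdown replicates 1 and 2, whose 18S signal was nearer to that of the controls, the differences were -0.90 and -0.63 (adjusted p = 0.0707 and 0.224). The 18S signal as a covariate gave -0.66 and -0.42 (adjusted p = 0.404 and 0.662), with standard errors of 0.31 and 0.34.

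IL2RG, the gamma chain that pairs with IL7R, moved the other way and rose. Its only probe set, 204116_at, had log2 values of 9.0001, 9.16, 9.72 and 9.74 in knockdown arrays and 8.59, 8.90, 8.68 and 8.69 in control arrays. The groups did not overlap, and knockdown replicates 3 and 4 were the highest. The means were 9.41 ± 0.38 in knockdown and 8.71 ± 0.13 in control arrays (SD, n = 4 each), a difference of 0.69 ± 0.16 (SE; 95% confidence interval 0.33 to 1.06; adjusted p = 0.0196), or 1.62-fold. This call was narrow: it ended without control replicate 1 or 3 (adjusted p = 0.0501 and 0.0574) and without knockdown replicate 3 or 4 (0.0569 and 0.0587), and with the equal-variance test (0.101). With knockdown replicates 1 and 2 only the difference was 0.36 (adjusted p = 0.115), and with the 18S covariate it was 0.01 ± 0.17 (SE; adjusted p = 0.990). The cause of this dependence was not tested.

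IL2RA and IL4R, the chains that bind interleukins 2 and 4, had no call. Both IL2RA probe sets were dim, with means of 4.28 and 4.15 over all arrays. The dimmer one, 211269_s_at, was 4.18 to 4.24 in knockdown and 3.97 to 4.14 in control arrays, without overlap, but its difference of 0.14 (95% confidence interval -0.01 to 0.29) did not pass (adjusted p = 0.225). IL4R 203233_at had 7.22, 7.34, 7.31 and 7.35 in knockdown arrays and 7.31, 7.45, 7.46 and 7.41 in control arrays. These groups overlapped, and the difference of -0.10 had an interval of -0.26 to 0.05 (adjusted p = 0.383). The other IL4R probe set was dim (mean 4.97), with a difference of 0.03.

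JAK3, the kinase carried by the gamma chain, rose on 1 of 4 probe sets. Probe set 227677_at had log2 values of 7.37, 7.65, 8.20 and 8.10 in knockdown arrays and 7.05, 6.88, 6.59 and 6.48 in control arrays. All knockdown values lay above all control values, with knockdown replicates 3 and 4 highest, as for IL2RG. The means were 7.83 ± 0.39 in knockdown and 6.75 ± 0.26 in control arrays (SD, n = 4 each), a difference of 1.08 ± 0.19 (SE; 95% confidence interval 0.67 to 1.49; adjusted p = 0.00457), or 2.11-fold. It passed with each array left out (adjusted p up to 0.0194) and, at 0.76, with knockdown replicates 1 and 2 only (adjusted p = 0.0484), but not with the equal-variance test (adjusted p = 0.0503). With the 18S covariate the difference was 0.50 ± 0.27 (SE; adjusted p = 0.486). The other JAK3 probe sets, with means of 5.71, 5.19 and 3.71, differed by 0.00, 0.02 and 0.14 and did not pass. The part of the transcript that each probe set reads was not given in the sources used here.

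JAK1, the kinase on the IL7R chain, had 6 probe sets and no call. The brightest, 201648_at, had 10.80, 10.96, 10.79 and 10.88 in knockdown arrays and 10.17, 10.46, 10.60 and 10.90 in control arrays. The groups overlapped only through control replicate 4; the difference was 0.32 (95% confidence interval 0.03 to 0.62; adjusted p = 0.136), and without that replicate it was 0.45 and passed (adjusted p = 0.0240). Probe set 1552611_a_at was 9.12 to 9.69 in knockdown and 8.42 to 9.29 in control arrays, a difference of 0.42 (adjusted p = 0.188). It was larger in both other fits, 0.68 with knockdown replicates 1 and 2 only and 0.86 with the 18S covariate, but did not pass there (adjusted p = 0.131 and 0.309). Probe set 1552610_a_at had the opposite sign, -0.25, with 6.93 to 7.28 in knockdown and 6.70 to 8.47 in control arrays, where 8.47 was control replicate 4. The other 3 JAK1 probe sets had means under 6 and differences from 0.05 to 0.11.

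STAT5A and STAT5B, the pathway's transcription factors, did not pass on any of 6 probe sets. The 2 proteins and transcripts are closely alike, and no probe sequence was used here, so signal shared between them cannot be told apart. STAT5A 203010_at had 10.01, 10.17, 10.21 and 10.14 in knockdown arrays and 10.08, 10.18, 10.15 and 10.45 in control arrays. The groups overlapped, with a difference of -0.08 and an interval of -0.28 to 0.12 (adjusted p = 0.621). For STAT5B the brightest probe set, 212549_at, had 9.36, 9.48, 9.78 and 9.70 in knockdown arrays and 9.19, 9.25, 9.20 and 9.41 in control arrays. Knockdown replicates 3 and 4 were again the highest, and only knockdown replicate 1 fell within the control range. Its difference of 0.32 (interval 0.09 to 0.55) missed the threshold (adjusted p = 0.0684), as did that of 205026_at, 0.25 (interval 0.07 to 0.43; adjusted p = 0.0688), which was 6.87 to 6.99 in knockdown and 6.57 to 6.86 in control arrays. With the 18S covariate these differences were -0.08 and 0.11. The other STAT5B probe sets differed by -0.10, 0.02 and -0.09.

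SOCS2 and CISH, feedback inhibitors induced by STAT5, showed no called change. The bright SOCS2 probe set, 203373_at, had 10.28, 10.35, 10.21 and 10.23 in knockdown arrays and 10.23, 10.19, 10.27 and 10.27 in control arrays. Its difference of 0.03 had the narrow interval of -0.12 to 0.18 (adjusted p = 0.843). The other, 203372_s_at, had 7.54, 7.67, 7.77 and 7.80 in knockdown arrays and 7.19, 7.27, 7.33 and 8.01 in control arrays. Control replicate 4 lay above all knockdown arrays, while the other controls lay below them all. The difference was 0.25 (adjusted p = 0.359), and without control replicate 4 it was 0.43 and passed (adjusted p = 0.0125). For CISH, whose promoter with its STAT5 matches is printed above, 223377_x_at had 7.03, 7.14, 7.19 and 7.18 in knockdown arrays and 7.10, 6.88, 6.95 and 7.10 in control arrays. The groups overlapped, with a difference of 0.13 and an interval of -0.05 to 0.30 (adjusted p = 0.339). The other 2 CISH probe sets differed by 0.04 and -0.10. By their suffixes all 3 CISH probe sets may also read other transcripts.

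**Figure D2:**
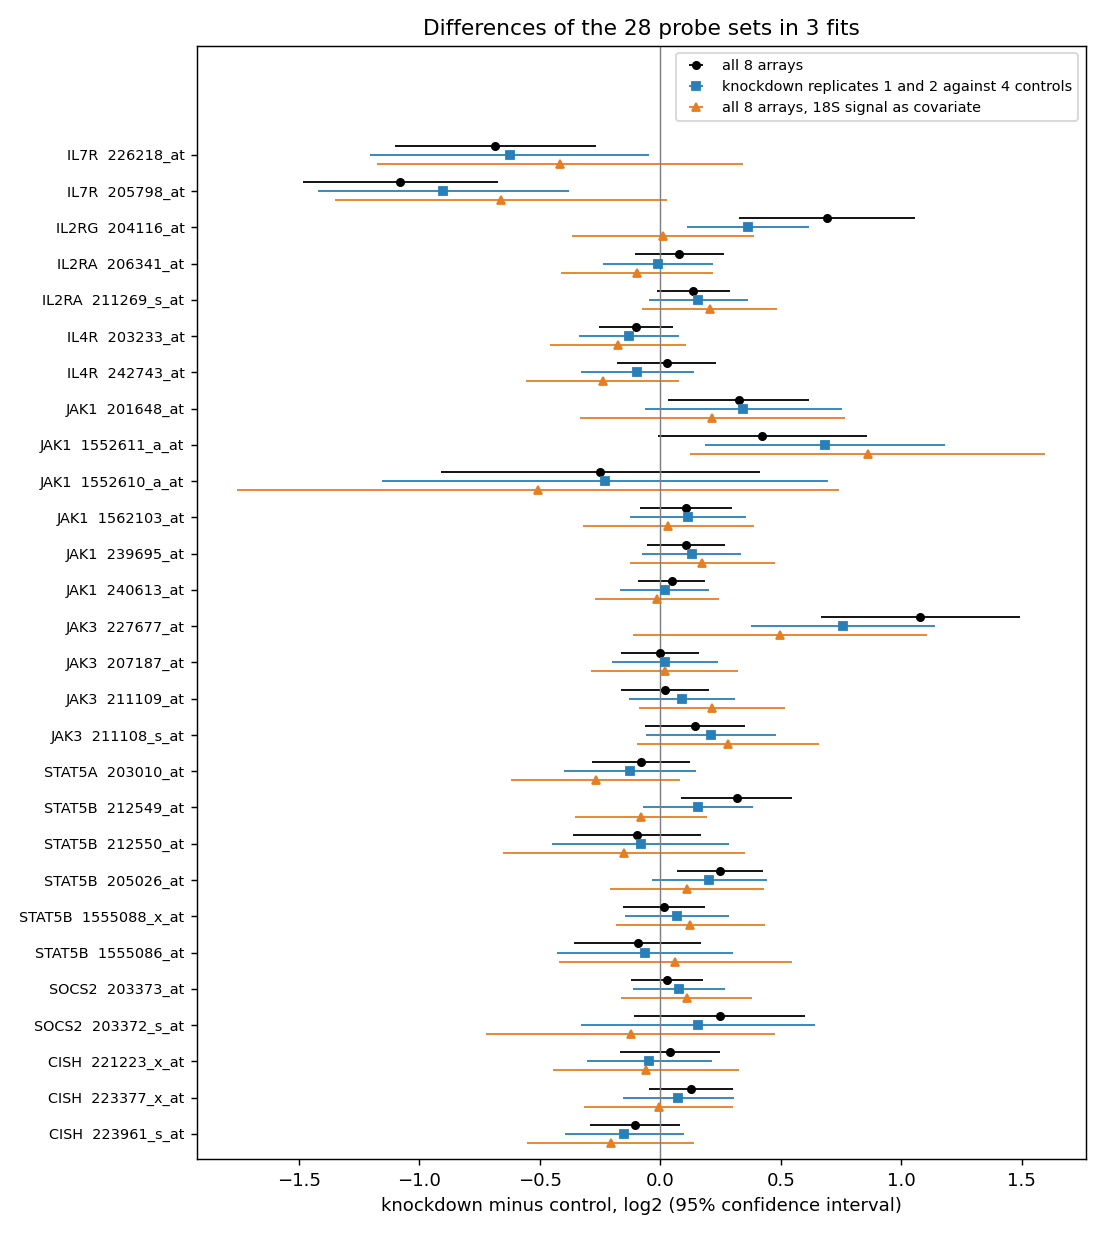
Difference, knockdown minus control, of each member probe set (log2, points) with its 95% confidence interval (bars) for all 8 arrays, for knockdown replicates 1 and 2 against the 4 controls, and for all arrays with the 18S signal as covariate. The points of the 2 IL7R rows lie below 0 in each fit, those of JAK3 227677_at lie above it, and IL2RG moves to 0.01 with the covariate. The intervals of all these rows include 0 with the covariate.

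**Figure D3:**
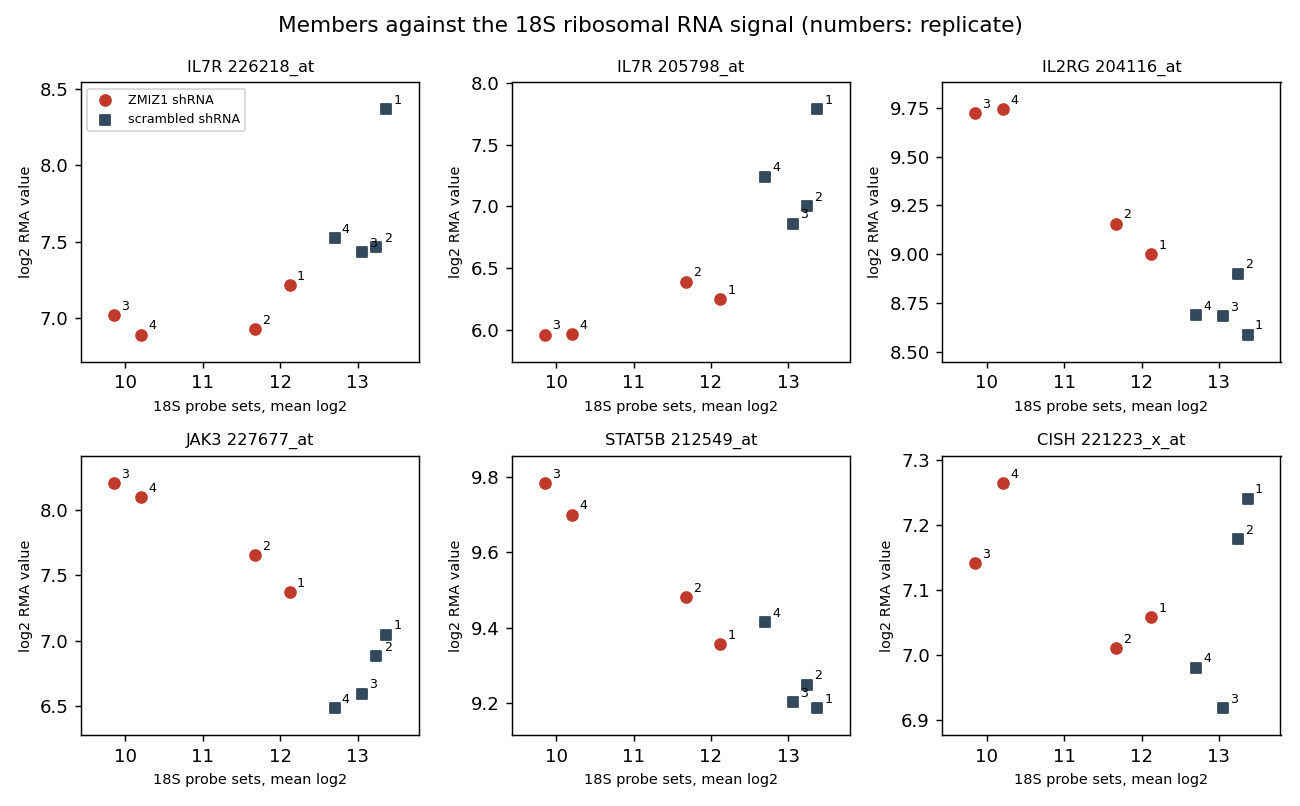
Log2 value of 6 member probe sets (vertical axis) against the mean log2 signal of the 18S control probe sets (horizontal axis), a point per array with its replicate number; circles are ZMIZ1 shRNA and squares scrambled shRNA arrays. Knockdown replicates 3 and 4, with 18S signals of 9.85 and 10.21, have the highest IL2RG, JAK3 and STAT5B values shown.

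The groups do not overlap in 18S signal, so its part in these differences cannot be told apart from that of the shRNA. With knockdown replicates 1 and 2 only, 1 member probe set was called against 3.56% of all, and with the covariate limma called 0 members (1 at an unadjusted p under 0.05) against 0.0879%. In the authors' deposited table, whose limit is a p under 0.01 with over a 1.3-fold difference, 2 of the 28 member probe sets passed, IL7R 205798_at (ratio 0.474) and JAK3 227677_at (ratio 2.11), against 7.28% of all probe sets there.

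Genes around the members were read on the brightest probe set of each gene. Of 78 genes in 7 lists, 9 rose, 12 fell and 57 did not pass, so that 26.9% had a call against 17.7% of all genes (12% higher and 5.7% lower). The lists were drawn up for well-known, mostly bright genes, 63 of the 78 having a mean of at least 6. Of all probe sets with such a mean, 27.7% had a call, near the share in the lists. The 2 shares are not like for like. The former counts every bright probe set of a gene, while the lists take 1 per gene and include dim genes. The median difference was -0.03 for the lists and 0.03 for all genes, of which 8893 of 20307 lay below 0 and 11414 above. Calls lost with the equal-variance test were those of IL15, IL21R, IL13RA1, TYK2, PIAS4, ETS1 and AKT1 (adjusted p = 0.0563 to 0.128). With the 18S covariate 1 of the 21 calls, that of CCND2, was kept, and with knockdown replicates 1 and 2 only 2 genes of the lists rose and 7 fell.

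**Figure D4:**
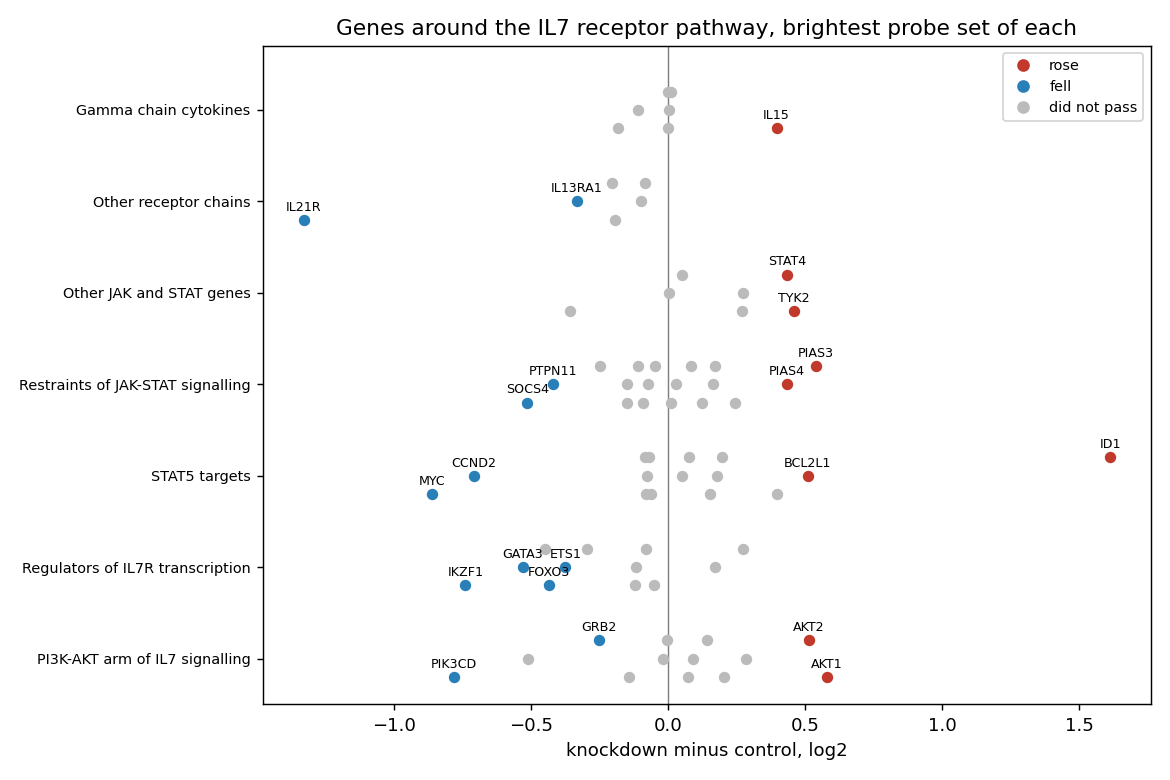
Difference, knockdown minus control (log2), of each of the 78 genes, by list; each point is the brightest probe set of a gene, coloured by whether it rose, fell or did not pass at an adjusted p under 0.05. IL21R at -1.33 and ID1 at 1.61 are the outermost points.

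Among the other receptor chains of this cytokine family, 2 of 6 fell and 4 did not pass, with a median of -0.20 and all 6 below 0, as were 8893 of all 20307 genes. The median was -0.29 with the 18S covariate and -0.26 with knockdown replicates 1 and 2 only. IL9R, named after its values were seen, differed by -0.19 on its brightest probe set and by 0.23 on its other one. Neither passed. IL21R, which pairs with the gamma chain to bind interleukin 21, had log2 values of 6.96, 7.41, 7.72 and 7.81 in knockdown arrays and 8.12, 8.75, 9.02 and 9.31 in control arrays. The groups did not overlap, and the difference of -1.33 ± 0.25 (SE; adjusted p = 0.00657) leaves 39.8% of the control level. Both of its other probe sets fell as well (-1.38 and -1.02). IL21R passed with each array left out and, at -1.62, with knockdown replicates 1 and 2 only (adjusted p = 0.0282). Its difference was -2.18 with the 18S covariate (adjusted p = 0.0563). IL13RA1, a partner of IL4R, was dim (mean 3.67) and fell by 0.33. That call ended without control replicate 1 or 3 or knockdown replicate 1, 2 or 4 (adjusted p up to 0.106). Its 3 other probe sets differed by -0.09 to 0.08 and did not pass.

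Of 7 cytokine genes that signal through these receptors, 1 rose and 6 did not pass, with a median of 0.00 (-0.16 with the 18S covariate and -0.06 with knockdown replicates 1 and 2 only). IL15, which supports T and natural killer cells, rose by 0.40 ± 0.09 (SE; adjusted p = 0.0170), with 9.16, 9.24, 9.13 and 9.23 in knockdown arrays and 8.72, 8.62, 9.02 and 8.82 in control arrays. The groups were apart, and the second IL15 probe set also rose (0.45). Without knockdown replicate 4 the adjusted p of IL15 was 0.0540. IL7 itself, named after its value was seen, was dim (mean 3.28) and differed by 0.00.

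Of the 7 other JAK and STAT genes, 2 rose and 5 did not pass, with a median of 0.27 (0.10 with the 18S covariate). STAT4, the interleukin 12 effector, rose by 0.43 (adjusted p = 0.00532) at a low level, 4.76 to 5.05 in knockdown and 4.46 to 4.54 in control arrays; its difference with the 18S covariate was 0.28 (adjusted p = 0.407). TYK2, a kinase of the interferon and interleukin 12 receptors, rose by 0.46 (adjusted p = 0.0389). Its call ended without control replicate 1, 2 or 3 or knockdown replicate 3 or 4 (adjusted p up to 0.0968). The 18S covariate gave TYK2 a difference of -0.03.

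Among 18 restraints of JAK-STAT signalling, 2 rose, 2 fell and 14 did not pass, with a median of -0.02 (0.02 with the 18S covariate). PIAS3, an inhibitor of STAT3 which shares the MIZ-type zinc finger of ZMIZ1, rose by 0.54 ± 0.08 (SE; adjusted p = 0.00308). PIAS4 rose by 0.43 (adjusted p = 0.0193), a call that ended without control replicate 3 or knockdown replicate 3 or 4 (adjusted p up to 0.0624). SOCS4 fell by 0.51 (adjusted p = 0.00380), and PTPN11, the phosphatase SHP2 that transmits growth factor signals as well, fell by 0.42 (adjusted p = 0.00539). Of 5 other PTPN11 probe sets 3 fell, while the other SOCS4 probe set (0.13) did not pass. The 18S covariate lowered the size of these differences, to 0.28 for PIAS3 (adjusted p = 0.380), 0.28 for PIAS4 (0.578), -0.31 for SOCS4 (0.386) and -0.31 for PTPN11 (0.368). SOCS1, the STAT5-induced inhibitor named after its value was seen, was dim and differed by 0.03.

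Of 15 STAT5 targets 2 rose, 2 fell and 11 did not pass. The median was 0.05 with all arrays, -0.04 with the 18S covariate and -0.02 with knockdown replicates 1 and 2 only. BCL2L1, which encodes the survival protein BCL-XL, rose by 0.51 ± 0.09 (SE; adjusted p = 0.00407), with 8.42, 8.36, 8.65 and 8.58 in knockdown arrays and 7.99, 8.10, 7.89 and 7.99 in control arrays. Its difference was 0.30 with the 18S covariate (adjusted p = 0.403) and 0.40 with knockdown replicates 1 and 2 only (adjusted p = 0.0564). Of the 3 other BCL2L1 probe sets 1 rose, and their differences ran from -0.17 to 0.58. ID1, which blocks DNA binding by E proteins, rose by 1.61 (adjusted p = 0.000713), and its difference with the covariate was 1.56 (adjusted p = 0.109). CCND2, cyclin D2, fell by 0.71 ± 0.13 (SE; adjusted p = 0.00520), with 8.99, 9.09, 9.39 and 9.43 in knockdown arrays and 9.98, 9.74, 9.83 and 10.18 in control arrays. Both groups of CCND2 were apart, its other 2 probe sets fell too (-1.17 and -0.87), and its difference with the 18S covariate was -1.15 (adjusted p = 0.0486). MYC, a driver of cell growth, fell by 0.86 (adjusted p = 0.000966); the 18S covariate gave -0.50 (adjusted p = 0.170). Its other probe set differed by 0.10 and did not pass. PIM1 (-0.08) and BCL2 (0.20), named after their values were seen, did not pass. MCL1, also named after its values were seen, did not pass on its brightest probe set (0.18), while 1 of its 5 others rose.

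Among 12 regulators of IL7R transcription, 4 fell and 8 did not pass, with a median of -0.21 and 10 of 12 below 0, against 8893 of all 20307 genes. The median was -0.06 with the 18S covariate and -0.13 with knockdown replicates 1 and 2 only. IKZF1, the Ikaros factor, had log2 values of 11.40, 11.35, 11.31 and 11.34 in knockdown arrays and 11.999, 11.99, 12.05 and 12.31 in control arrays. Its difference of -0.74 ± 0.08 (SE; adjusted p = 0.000880) was the same size, -0.74, with the 18S covariate, but no longer passed (adjusted p = 0.110), and 4 of its 8 other probe sets fell. GATA3, a T lineage factor, fell by 0.53 (adjusted p = 0.00189) and FOXO3, a forkhead factor restrained by AKT, by 0.43 (adjusted p = 0.00541), with differences of -0.51 and -0.44 with that covariate (adjusted p = 0.172 and 0.246). ETS1, a founding member of the ETS family, fell by 0.37 (adjusted p = 0.0474). Its call ended without control replicate 3 or 4 or any 1 of the 4 knockdown replicates (adjusted p up to 0.127). Of the other probe sets 1 of 2 fell for GATA3, 2 of 3 for FOXO3 and 1 of 2 for ETS1. NOTCH1, named after its values were seen, did not pass on its brightest probe set (-0.08), while its other one fell (-0.28).

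In the PI3K-AKT arm of interleukin 7 signalling, 2 of 13 genes rose, 2 fell and 9 did not pass, with a median of 0.07. PIK3CD, the leukocyte catalytic subunit p110 delta, had log2 values of 8.66, 8.64, 8.68 and 8.75 in knockdown arrays and 9.61, 9.52, 9.43 and 9.29 in control arrays. The groups were well apart, with a difference of -0.78 ± 0.08 (SE; adjusted p = 0.000627), and of -0.77 with the 18S covariate (adjusted p = 0.0939); its dimmer probe set differed by -0.04 and did not pass. GRB2, an adaptor, fell by 0.25 (adjusted p = 0.0268), a call that ended without control replicate 1 or 3 or knockdown replicate 2 or 4 (adjusted p up to 0.0721). The kinases AKT2 and AKT1 rose by 0.51 and 0.58 (adjusted p = 0.00677 and 0.0295). AKT1 lost its call without control replicate 1, 2 or 3 or knockdown replicate 3 or 4 (adjusted p up to 0.0895). The 18S covariate gave AKT1 a difference of -0.08 and AKT2 one of 0.26 (adjusted p = 0.521); of the 6 other AKT2 probe sets 1 fell.

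Likeness to IL7R was measured as Pearson's r over the 8 arrays with each group's mean removed, which leaves the variation among replicates. Of 11096 other genes with a mean of at least 6, those closest to IL7R 226218_at were SLC20A1 (r = 0.983), SLC35B4 and SCAI (both 0.978), SLC36A1 (0.969) and PHF16 (0.968). Among these, PHF16 fell by 0.35 (adjusted p = 0.00852) and the others did not pass. The second IL7R probe set had an r of 0.833 with the first. The likeness rests on 8 points, in which control replicate 1 stands out.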

How the data were processed

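RNA was measured on 8 arrays, 4 per group. The authors deposited log2 values made with RMA, named in the submitters' processing notes and per the file headers; the RMA version was not given in the sources used here. The deposited workbook and value table differ by at most 5e-09. The workbook also holds the authors' p-value, matched by an equal-variance 2-sample test to within 5.63e-09, and a deposited ratio of knockdown over control. The manufacturer's 62 control probe sets were left out of 54675.

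Differences are knockdown minus control, fitted with limma 3.58.1 in R 4.3.3 (lmFit, eBayes, two-sided) on all remaining probe sets, with Benjamini-Hochberg adjustment over all of them; a gene in a list stands for its probe set of highest mean. Errors are SD of arrays or limma's SE. The script was tested on simulated data. From each list every gene past the threshold is named, at most 6 per list, and others only as said. Members and lists were chosen with earlier results of these data known. The replicates are given as unpaired, so no pairing was used. Correlations of deviations between same-numbered arrays of the groups ran from -0.09 to 0.06. Alternatives were a mean-variance trend, array weights, the equal-variance test, median centring, leaving out dim probe sets, a replicate block, the 18S covariate, knockdown replicates 1 and 2 only, each array left out, and the mean of a gene's probe sets.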

Additional observations from a re-analysis of the deposited data

Results flagged for a closer look

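Of 102 groups of 4 arrays examined for a single array far from the others, 3 had one, where chance gives about 1 in 20. For IL7R 226218_at control replicate 1, at 8.37, lay above the other controls, of which the next was 7.52. For the dim JAK3 207187_at knockdown replicate 4, at 5.65, lay below the next knockdown array at 5.72. For IKZF1 control replicate 4, at 12.31, lay above the next control at 12.05.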

How the results depend on the processing

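The brightest probe set of ZMIZ1 kept its direction and call under every alternative run (-1.44 to -1.15). The number of changed probe sets was 7592 with all arrays, 10919 with array weights, 3910 with the equal-variance test, 48 with the 18S covariate and 1943 with knockdown replicates 1 and 2 only, and 4438 to 7430 with each array left out. Of the members, 2 rose and 2 fell with all arrays, and 3 rose and 2 fell with median centring. Array weights gave 4 that rose, as did leaving out dim probe sets; these added STAT5B 212549_at and 205026_at. The equal-variance test gave 0 that rose (5 higher at an unadjusted p under 0.05) and 1 that fell. Limma with the 18S covariate gave 0 that rose and 0 that fell (1 higher and 0 lower unadjusted), and with knockdown replicates 1 and 2 only 1 rose and 0 fell (2 lower unadjusted). With each array left out 1 to 6 rose, 6 of them without control replicate 4, and 1 to 2 fell. Of the list genes 9 rose and 12 fell with all arrays, and 15 rose and 15 fell with array weights. Median centring gave 12 list genes that rose and 10 that fell. With the 18S covariate 0 rose (5 higher unadjusted) and 1 fell. With knockdown replicates 1 and 2 only 2 rose and 7 fell, and with each array left out 5 to 11 rose and 9 to 13 fell. The replicate block, a pairing the labels do not give, left 6698 changed probe sets and 2 members each way; 2 of the 4 same-numbered pairs correlated best with their own number. The alternatives for named list genes were added after seeing the data.

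With the 18S covariate the sign turned for IL2RA 206341_at (-0.10), IL4R 242743_at (-0.24), JAK1 240613_at (-0.013), STAT5B 212549_at (-0.079), STAT5B 1555086_at (0.062), SOCS2 203372_s_at (-0.12), CISH 221223_x_at (-0.058), CISH 223377_x_at (-0.0070), TYK2 (-0.031) and AKT1 (-0.077). With knockdown replicates 1 and 2 only it turned for IL2RA 206341_at (-0.0081), IL4R 242743_at (-0.095) and CISH 221223_x_at (-0.045), and with array weights for JAK3 207187_at (-0.024), JAK3 211109_at (-0.0050) and STAT5B 1555088_x_at (-0.027). With each array left out, the differences that took both signs ranged from -0.014 to 0.093 for CISH 221223_x_at, -0.022 to 0.10 for IL4R 242743_at, -0.47 to 0.12 for JAK1 1552610_a_at, -0.045 to 0.035 for JAK3 207187_at, -0.026 to 0.068 for JAK3 211109_at, -0.00072 to 0.047 for SOCS2 203373_at, -0.21 to 0.0040 for STAT5B 1555086_at, -0.010 to 0.059 for STAT5B 1555088_x_at and -0.17 to 0.028 for STAT5B 212550_at. The cause was not tested.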
